A study of Mus musculus with 11 samples.

Results

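The genes described here are a set of 36 listed symbols of glycolysis, glycogen metabolism and glucose uptake, and the members are those with a row in the soleus or the quadriceps table. Of the 36 symbols, 35 were rows of both tables, and Aldoc, a brain-type aldolase, was a row of neither. The tables held 13359 genes in all. RNA was sequenced from soleus, a calf muscle of posture with many slow fibres, and from quadriceps, a thigh muscle made mostly of fast fibres, in mice 2.5 months of age. One group had Myc, a transcription factor of growth, induced through a tetracycline system by a night of doxycycline, with muscles collected 12 hours after it was stopped. The other group was age-matched controls. There were 3 control and 4 Myc-labelled libraries of soleus, and 2 control and 2 Myc-labelled libraries of quadriceps. The labels do not name the promoter that drove the Myc system, the genotype of the controls, or whether the controls received doxycycline, so an effect of the drug and one of Myc cannot be told apart here.

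Glucose enters muscle through carrier proteins, is trapped as glucose 6-phosphate by hexokinases, and is either stored as glycogen or split by glycolysis into pyruvate and lactate. Muscle uses its own isoforms at many of these steps, such as phosphofructokinase M, phosphoglycerate mutase 2, beta-enolase and glycogen phosphorylase M, while other isoforms are widespread or belong to liver, brain or growing cells. Fast fibres hold more glycolytic and glycogenolytic enzyme than slow fibres, and Myc is known in growing cells for raising lactate dehydrogenase A and other glycolysis genes.

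Depth was 11.1 to 14.9 M estimated reads in soleus and 14.2 to 18.4 M in quadriceps. The Myc row itself held 28.2 to 54.3 normalised read counts in soleus controls and 26.3 to 31.0 in the Myc-labelled soleus libraries, a log2 change of -0.33 (limma, adjusted p = 0.69), and its log2 change in quadriceps was -0.55 (adjusted p = 0.93). The row did not mark the Myc-labelled libraries, so every direction given below rests on the labels. No label says that the libraries of a group came from separate animals, or that a number shared by the muscles marks 1 animal. The p-values therefore measure the spread between these libraries, which may be technical. Slow and fast fibre markers were both abundant in soleus, and fast markers made up most of the fibre marker counts in quadriceps. The 2 muscles were normalised separately, so levels are not compared between them.

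Myc pairs with Max on the sequence CACGTG, known as an E-box, and this is a palindrome, so it reads the same on both strands. Its letters were searched in RefSeq windows from 250 bases before to 50 after each transcription start (build GRCm38.p6), which 34 of the 36 listed genes had. Neither Slc2a4 nor Gpd1 had an entry. The motif stood in the windows of 5 of the 34 genes (14.7%), against 8.09% of 27025 genes with a window and 12.0% of the 10138 that were tested in soleus. By single windows the motif was in 5 of the 50 member windows and in 7.15% of all 32851. The 5 genes were Ldha, Pfkm, Pfkfb3, Fbp2 and Gyg, and none of them passed the test in either muscle. Ldha, the lactate dehydrogenase subunit long used as an example of a Myc target, held 2 matches, 145 and 48 bases before the start. Its 250 bases (chr7:46845554-46845803, plus strand) are shown with those of Phkg1 (chr5:129879089-129879338, minus strand), a member that fell in soleus and has no match, and with short windows of Pfkm (chr15:98092443-98092468, plus strand), Pfkfb3 (chr2:11502128-11502153, minus strand) and Fbp2 (chr13:62858427-62858452, minus strand). Capitals mark the motif, and a match is a match of letters, not a site of binding.
Ldha: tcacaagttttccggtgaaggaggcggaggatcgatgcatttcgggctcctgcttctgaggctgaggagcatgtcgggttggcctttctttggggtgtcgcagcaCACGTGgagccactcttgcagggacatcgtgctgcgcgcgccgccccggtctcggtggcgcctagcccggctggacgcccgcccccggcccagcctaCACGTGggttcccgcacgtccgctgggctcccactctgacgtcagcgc
Phkg1: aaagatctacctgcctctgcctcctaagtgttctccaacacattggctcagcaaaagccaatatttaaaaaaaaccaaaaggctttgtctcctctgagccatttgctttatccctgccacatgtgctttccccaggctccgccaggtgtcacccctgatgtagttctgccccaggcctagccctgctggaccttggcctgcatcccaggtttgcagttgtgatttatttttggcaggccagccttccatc
Pfkm: ttaagtatgcCACGTGaagtaagtaa
Pfkfb3: cccttctctcCACGTGaaagggggct
Fbp2: ctatctgagtCACGTGgggtggggtt

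In soleus, 2 of the 35 members passed the test and both fell. They were Slc2a4, the insulin-responsive glucose carrier GLUT4, and Phkg1, the catalytic subunit of muscle phosphorylase kinase. None rose. Across all 12745 genes tested in soleus, 9.29% passed (limma on log2(value + 1), Benjamini-Hochberg adjusted p under 0.05), 7.06% as higher and 2.23% as lower. The log2 change was below 0 for 25 of the 35 members and for 54.4% of all genes, and its median was -0.09 over the members and -0.03 over all genes. With each library scaled by its total instead, 22 of the 35 were below 0, with a median of -0.05 against 0.01.

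Slc2a4 (chr11:69942543-69948164, minus strand) held 10233, 9917 and 10056 normalised read counts in soleus controls 1 to 3, and 6782, 7163, 8774 and 7229 in Myc-labelled libraries 1 to 4. Every Myc-labelled library lay below every control, and the controls lay close together. The mean fell by 25.6%, from 10069 ± 158 (SD, n = 3) to 7487 ± 880.4 (SD, n = 4), a log2 change of -0.43 ± 0.10 (SE, 95% interval -0.65 to -0.22, limma, adjusted p = 0.0099). It passed under every alternative run, with log2 changes of -0.53 to -0.39 and adjusted p-values of 0.0013 to 0.046. In a whole muscle, fewer fibres of a type and less RNA per fibre cannot be told apart.

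Slc16a3, the lactate exporter MCT4 of fast fibres, was a low gene in soleus, with 576, 549 and 384 normalised read counts in the controls and 198, 323, 321 and 123 in the Myc-labelled libraries. The groups did not overlap, but Myc-labelled libraries 1 and 4 were far below libraries 2 and 3. Its log2 change of -1.14 ± 0.36 (SE), interval -1.98 to -0.30, did not pass (limma, adjusted p = 0.11). It did pass without robust moderation (adjusted p = 0.028) and without Myc-labelled library 4, where the log2 change was -0.85 (adjusted p = 0.037). Slc2a1, the widespread carrier GLUT1, overlapped between the groups, with a log2 change of -0.02 and an interval of -0.45 to 0.41.

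**Figure D1:**
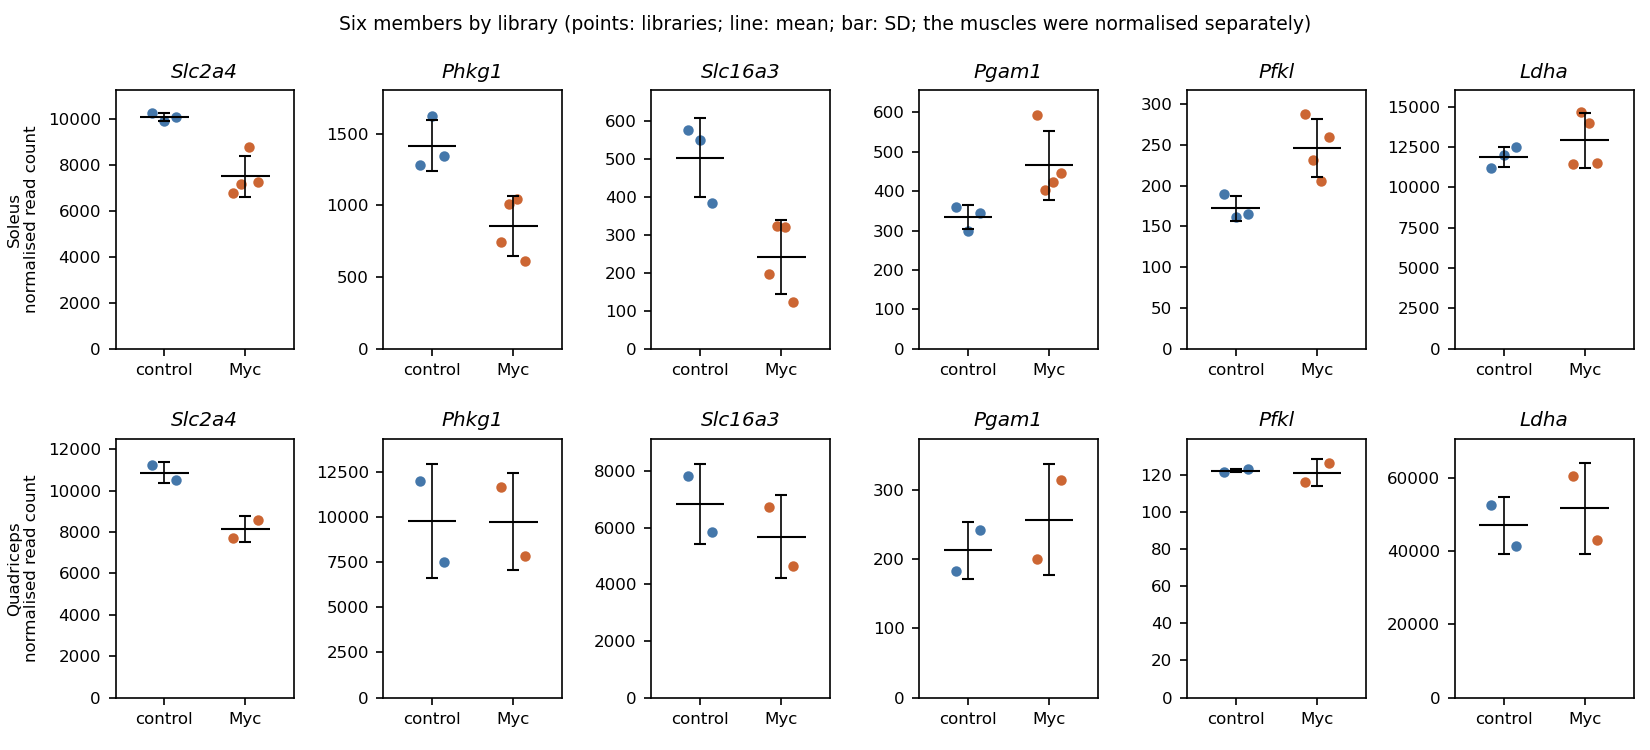
Normalised read counts of 6 members by library in soleus (upper row) and quadriceps (lower row), with each group's mean as a line and its SD as a bar. In soleus the Myc-labelled points of Slc2a4, Phkg1 and Slc16a3 lie below all controls, those of Pgam1 and Pfkl lie above them, and those of Ldha overlap. In quadriceps only Slc2a4 of these 6 has groups that do not overlap.

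Phkg1 (chr5:129863421-129879083, minus strand) held 1285, 1621 and 1343 normalised read counts in soleus controls and 747, 1009, 1045 and 612 in the Myc-labelled libraries. The groups did not overlap. Phosphorylase kinase switches on glycogen phosphorylase, and this subunit carries its kinase domain. The mean fell by 39.7%, from 1416 ± 179.97 (SD, n = 3) to 853 ± 208 (SD, n = 4), a log2 change of -0.76 ± 0.18 (SE, interval -1.15 to -0.36, limma, adjusted p = 0.022). It no longer passed without control 2 (adjusted p = 0.089), control 3 (0.080) or Myc-labelled library 1 (0.060), nor in 1 fit over all 11 libraries (0.074). Of its 2374 exon bases, 630 overlap Sumf2 on the opposite strand, and whether the counting used strand is not given in the sources used here. Sumf2 had a log2 change of 0.01 (adjusted p = 0.99) from a mean of 91.0 normalised read counts in controls.

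The other 9 glycogen genes did not pass in soleus, and the median log2 change of all 10 was -0.14. The muscle phosphorylase Pygm, which frees glucose 1-phosphate from glycogen, had a log2 change of -0.16 with an interval of -0.43 to 0.10. The regulatory subunit Phka1 held 2577, 2608 and 2205 normalised read counts in controls and 2062, 1989.7, 2699 and 2028 in the Myc-labelled libraries, so library 3 stood above all controls and the other 3 below them. Its log2 change was -0.17 (interval -0.42 to 0.07), and that of the beta subunit Phkb was -0.14 (-0.35 to 0.08). Pygb, the brain phosphorylase, held 266, 280 and 349 in controls and 256, 225, 189 and 313 in Myc-labelled libraries, a log2 change of -0.29 (-0.68 to 0.10) with overlapping groups. On the side of synthesis, glycogen synthase Gys1 had a log2 change of 0.00 (-0.22 to 0.23), the primer glycogenin Gyg -0.04 (-0.23 to 0.15), the branching enzyme Gbe1 -0.13 (-0.34 to 0.07) and the UDP-glucose enzyme Ugp2 -0.10 (-0.32 to 0.11). Exons of Gys1 overlap Ruvbl2 over 310 of 3678 bases on the opposite strand, and Ruvbl2 rose by 0.94 on the log2 scale (adjusted p = 0.00098). Phosphoglucomutase needs care with names, because Pgm1 and Pgm2 have been used for each other. The listed Pgm2 was a low row in soleus (44.6 to 96.0 normalised read counts, log2 change 0.04), whereas the row named Pgm1 held 3892 to 5608 and changed by -0.22 (-0.45 to 0.02, adjusted p = 0.27).

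None of the 7 tested genes from hexokinase to aldolase passed in soleus, with a median log2 change of -0.05. Pfkl, the liver-type phosphofructokinase, held 189, 161 and 166 normalised read counts in controls and 287, 232, 205 and 259 in the Myc-labelled libraries. All 4 Myc-labelled libraries were above all controls, and the log2 change was 0.51 ± 0.18 (SE), interval 0.13 to 0.88 (limma, adjusted p = 0.089). Pfkm, the muscle form and by far the more abundant, held 22427, 23802 and 24094 in controls and 18558, 20598, 24744 and 20379 in Myc-labelled libraries. Its groups overlapped through Myc-labelled library 3 and its log2 change was -0.16 (-0.38 to 0.06). Aldoa, the muscle aldolase, was likewise lowest in Myc-labelled library 1 and highest in library 3, with 63158, 69566 and 69964 in controls and 46896, 58571, 74703 and 59076 in Myc-labelled libraries, a log2 change of -0.19 (-0.47 to 0.08). Hexokinase 2, the insulin-regulated hexokinase of muscle, held 8275, 8193 and 7999 in controls and 7739, 8021, 9777 and 9595 in Myc-labelled libraries. Myc-labelled libraries 3 and 4 were above the controls and library 1 below them, and the log2 change was 0.10 (-0.12 to 0.31). Hk1, Gpi1 and Pfkp had log2 changes of -0.09, -0.05 and 0.08.

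Fructose 2,6-bisphosphate is the strongest activator of phosphofructokinase, and its level is set by the Pfkfb enzymes. None of Pfkfb1, Pfkfb3, Pfkfb4 and the muscle fructose bisphosphatase Fbp2 passed in soleus. Pfkfb3 was the most variable of them. It held 340.2, 798 and 239 normalised read counts in controls and 226, 453, 342 and 158 in Myc-labelled libraries, so both groups spread over more than their difference, and the interval of its log2 change ran from -1.94 to 0.82. The other 3 had log2 changes of -0.11 to 0.01.

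None of the 11 genes from triose phosphates to lactate passed in soleus, with a median log2 change of -0.06. Pgam1, the widespread phosphoglycerate mutase, held 359.6, 299.7 and 344 normalised read counts in controls and 594, 402, 423 and 445 in the Myc-labelled libraries. Every Myc-labelled library was above every control, and the log2 change was 0.46 ± 0.15 (SE), interval 0.14 to 0.78 (limma, adjusted p = 0.068). Pgam2, the muscle mutase, held 11445, 10991 and 11236 in controls and 8979, 8153, 10605 and 11491 in Myc-labelled libraries. Here 3 of the 4 Myc-labelled libraries were below the controls and library 4 was above them, and the log2 change was -0.21 (-0.44 to 0.03). Ldha held 11207, 11971 and 12472 in controls and 11436, 14667, 14010 and 11495 in Myc-labelled libraries. Its groups overlapped and its log2 change of 0.11, with an interval of -0.11 to 0.34, did not pass (adjusted p = 0.59). For its partner subunit Ldhb, the form of slow and heart muscle, the log2 change was -0.06 (-0.35 to 0.23). Pkm, pyruvate kinase, had a log2 change of 0.07 (-0.14 to 0.28), Pgk1 -0.05 (-0.26 to 0.16), Tpi1 -0.15 (-0.39 to 0.08), Eno3, the muscle enolase, -0.15 (-0.43 to 0.12) and Eno1 -0.07 (-0.30 to 0.16). Gapdh varied more between libraries than these, with an interval of -0.36 to 0.69 around 0.16. Gapdh, Aldoa, Pkm, Ldha, Eno1, Pgk1 and Tpi1 have processed pseudogenes, and how the authors' counting split such reads is not known. Gpd1, which links glycolysis to the glycerol phosphate shuttle, held 1094, 1191 and 849.9 in controls and 583, 1050.5, 1058 and 474 in Myc-labelled libraries. Libraries 1 and 4 were low and libraries 2 and 3 were among the controls, giving a log2 change of -0.47 (-1.30 to 0.35).

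For 23 of the 35 members the 95% interval in soleus lay wholly within a 1.5-fold change either way, a log2 change of 0.585, against 39.7% of all genes tested. Among the 23 were Ldha, Hk2, Pkm, Pfkm, Aldoa, Pygm and Gys1. Unadjusted p-values under 0.05 were reached by 5 members, Pgam1 and Pfkl with higher and Slc2a4, Phkg1 and Slc16a3 with lower values, where 21.7% of all genes reached one, 12.9% as higher and 8.77% as lower. The same 5 were the members whose groups did not overlap, where 12.7% of all genes were without overlap as higher and 8.35% as lower.

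**Figure D2:**
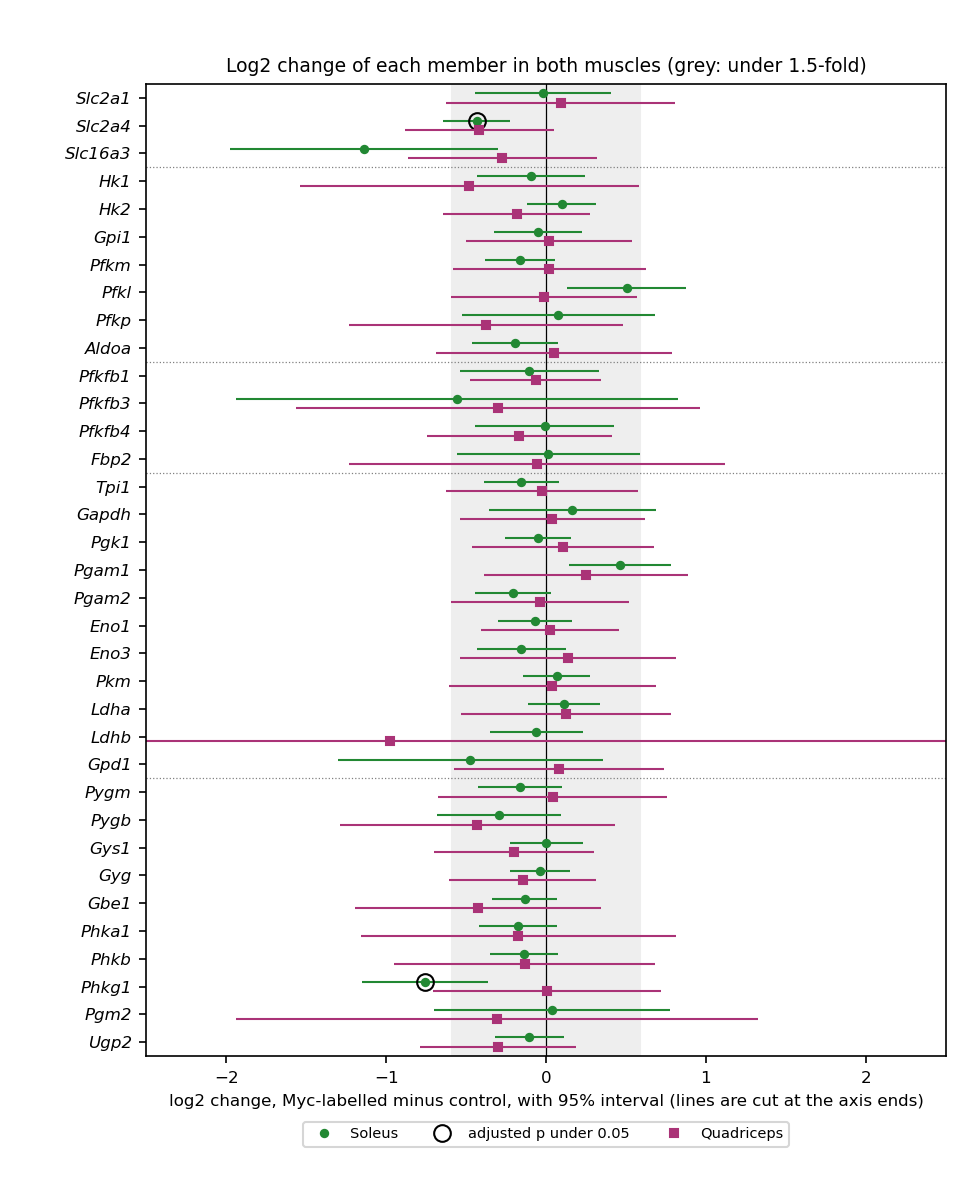
Log2 change of each of the 35 members, Myc-labelled minus control, with its 95% interval, in soleus (circles) and quadriceps (squares). The grey band is a change of under 1.5-fold, and rings mark Slc2a4 and Phkg1, the members that passed in soleus. Most soleus intervals lie within the band, and most quadriceps intervals are wider than it.

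The soleus libraries of the Myc-labelled group did not move together over the set. Myc-labelled library 1 was the lowest of the 7 libraries for 15 members (42.9%, against 13.2% of all genes tested), and Myc-labelled library 3 was the highest for 14 (40.0%, against 15.8%). The summed member counts were 306281 to 321903 in controls and 253382, 286924, 349038 and 293928 in Myc-labelled libraries 1 to 4. Summed fast fibre markers were likewise lowest in Myc-labelled library 1 and highest in library 3. The summed counts of 12 markers were 462057, 489159 and 477606 in controls and 283898, 386892, 499656 and 316505 in Myc-labelled libraries 1 to 4. All 12 had a log2 change below 0, with a median of -0.50, and 1 of them, the myosin light chain Mylpf, passed (-0.47, adjusted p = 0.010). The 10 slow fibre markers summed to 552504 to 638821 in controls and 520173 to 658855 in Myc-labelled libraries, with a median log2 change of -0.07. In Myc-labelled libraries 1, 2 and 4 the fast marker sum and Slc2a4 were both below all controls. In library 3 the fast marker sum was above all controls, and Slc2a4 was the highest of its group and below all controls. Myh2, a myosin of fast oxidative fibres that is not among the 12 markers, was picked after its values were seen. It was at 156370, 201565, 203365 and 163939 in Myc-labelled libraries 1 to 4 and at 192923 to 220703 in controls. The part of the fibre markers in the changes of Slc2a4, Phkg1 and Slc16a3 was not tested. Without Myc-labelled library 3, 12 members (34.3%, against 21.1% of all genes tested) had an unadjusted p under 0.05 instead of 5. The median was then -0.17 against -0.03 over all genes, and 2 members still passed. Library 3 was the highest for 14 members, so leaving it out lowers the changes by construction. Without Myc-labelled library 1, the lowest for 15, 5 members (14.3%, against 20.7% of all genes tested) had an unadjusted p under 0.05, and the median was -0.05. Without Myc-labelled libraries 3 and 4 together, 15 members (42.9%, against 18.4% of all genes tested) had one, and Pgam2 passed as well, with a log2 change of -0.39 (adjusted p = 0.029). Pgam2 was at 10605 and 11491 in these libraries and at 8979 and 8153 in libraries 1 and 2. Leaving out 3 and 4 therefore lowers its mean by construction, and this call adds nothing on whether Pgam2 fell.

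**Figure D3:**
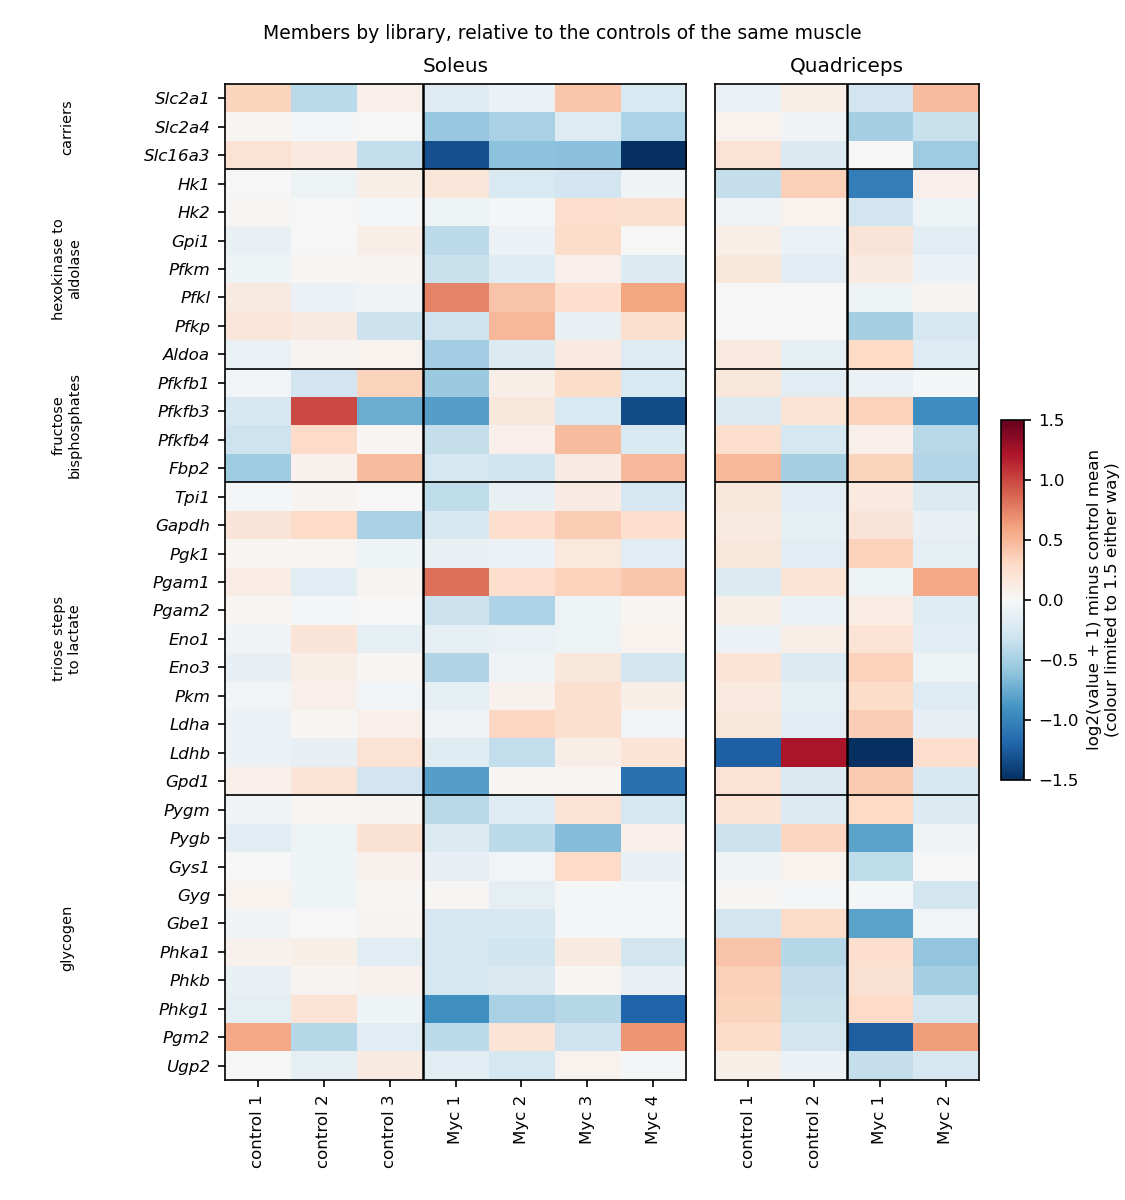
Log2(value + 1) of the 35 members in each library, minus the mean of the controls of the same muscle, ordered by role. In soleus, Myc-labelled library 1 is mostly blue (lower) and library 3 mostly pale red (higher). In quadriceps the libraries numbered 1 resemble each other, as do those numbered 2.

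Markers of other cell types were present at low levels in soleus. Summed tendon markers were 4551 to 5088 normalised read counts in controls and 1354 to 4014 in the Myc-labelled libraries, without overlap. Fibroblast markers were 9644 to 13211 and 4128 to 11818, adipocyte markers 8641 to 11887 and 7395 to 8833, endothelial markers 5555 to 6344 and 4655 to 5586, erythroid markers 7444 to 7704 and 3277 to 7523, and macrophage markers 302 to 502 and 218 to 504. Schwann cell markers were 1918 to 2840 and 2185 to 5361, and satellite cell markers 565 to 714 and 599 to 967. No marker of these 8 lists passed the test, and their part in the member values was not tested.

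In quadriceps none of the 35 members passed, and none had an unadjusted p under 0.05. Of all 12270 genes tested there, 0.00815% passed and 6.21% had an unadjusted p under 0.05. The members' median log2 change was -0.06 against -0.03 over all genes, and 21 of 35 were below 0, against 54.2% of all genes. Scaling by library totals left 17 of 35 below 0, with a median of 0.01 against 0.03. The sign of the median turned on single libraries. It was 0.12 without Myc-labelled library 2 and 0.06 without control 1, with 16 of 35 below 0 in each case. It was -0.16 without Myc-labelled library 1 (29 of 35 below 0) and -0.14 without control 2 (31 of 35). The groups did not overlap for 5 members, Slc2a4, Hk2, Pfkp, Gyg and Ugp2, all lower, where 16.9% of all genes were without overlap as lower.

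Slc2a4 held 11229 and 10503 normalised read counts in quadriceps controls and 7705 and 8597 in the Myc-labelled libraries. Both Myc-labelled libraries were below both controls, and the log2 change of -0.42 ± 0.20 (SE), with an interval of -0.88 to 0.05, did not pass (limma, adjusted p = 0.84). Ugp2 held 16234 and 14339 in controls and 11918 and 12862 in Myc-labelled libraries, a log2 change of -0.30 (-0.79 to 0.19). Hk2 held 7479 and 7986 in controls and 6332 and 7329 in Myc-labelled libraries, a log2 change of -0.18 (-0.64 to 0.28). These 2 also had no overlap, although the gap in Hk2 was small beside its spread. Pfkp, the platelet phosphofructokinase, was at 55.7 in both controls and at 39.1 and 46.5 in the Myc-labelled libraries, and its log2 change was -0.38 (-1.23 to 0.48). Part of its exons, 748 of 4298 bases, overlap Pitrm1 on the opposite strand.

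The other members named in quadriceps overlapped between the groups. Gbe1 held 970.2 and 1410.4 in controls and 667 and 1137 in Myc-labelled libraries. Pygb held 94.0 and 147 in controls and 66.8 and 113 in Myc-labelled libraries, and Hk1 88.2 and 145 against 54.5 and 119. In these 3 the library numbered 1 was the lower one in both groups, and their log2 changes were -0.42, -0.43 and -0.48 (adjusted p = 0.90, 0.91 and 0.93). As each library was left out in turn, these ran from -0.81 to -0.04 for Gbe1, from -0.81 to -0.05 for Pygb and from -1.04 to 0.08 for Hk1, each nearest to 0 or above it without Myc-labelled library 1. Slc16a3 had the opposite order, with 7833 and 5826 in controls and 6713 and 4653 in Myc-labelled libraries, a log2 change of -0.27 (-0.86 to 0.32) that was -0.54 without Myc-labelled library 1 and -0.01 without library 2. Ldha held 52504 and 41375 in controls and 60408 and 42846 in Myc-labelled libraries, a log2 change of 0.13 (-0.53 to 0.78).

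Many quadriceps members differed between the libraries numbered 1 and 2 within each group. For 19 of 35 members (54.3%) library 1 was above library 2 in both groups, and for 9 (25.7%) it was below in both, against 32.7% and 30.7% of all genes tested. Phka1, for example, held 19923 and 10972 in controls and 17555 and 9780.0 in Myc-labelled libraries. Summed fast fibre markers had the same order, with 2700550 and 1924070 in controls and 2843930 and 2096460 in Myc-labelled libraries. Slow fibre markers did not, with sums of 27026 and 196905 in controls and 2250 and 4684 in Myc-labelled libraries, a median log2 change of -4.77 over 10 genes of which none passed. Of these 10, 6 had an unadjusted p under 0.05 (limma), all lower, where 6.21% of all genes had one in either direction. The groups did not overlap for 8 of them, all lower, where 16.9% of all genes were without overlap as lower. Ldhb, the slow-muscle lactate dehydrogenase subunit, was at 1360.1 and 7472 in controls and 690.1 and 3789 in Myc-labelled libraries. It was high in the libraries numbered 2, and the interval of its log2 change ran from -6.22 to 4.27. Beside it, the slow myosin Myh7 was at 9731 and 76137 in controls and at 174 and 156 in Myc-labelled libraries. Myh2, the myosin of fast oxidative fibres, picked after its values were seen, was at 7752 and 70429 in controls and 5516 and 42229 in Myc-labelled libraries. The part of fibre content in the quadriceps values was not tested. Only 3 members, Eno1, Gpi1 and Pfkfb1, had an interval within a 1.5-fold change in quadriceps (8.57%, against 22.4% of all genes), so most changes of that size were not detectable there.

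Whether a member's change differed between soleus and quadriceps was tested as an interaction over all 11 libraries. None of the 35 members passed, nor did any of the 11971 genes tested (0%), of which 3.18% had an unadjusted p under 0.05. No member had one. The 4 smallest were of Phkg1, Pfkl, Hk2 and Slc16a3, with soleus changes that differed from the quadriceps ones by -0.76 (interval -1.60 to 0.07), 0.52 (-0.08 to 1.12), 0.28 (-0.10 to 0.67) and -0.87 (-2.20 to 0.46) on the log2 scale (adjusted p = 0.9989 each). In quadriceps, Phkg1 held 11999 and 7518 in controls and 11624 and 7834 in Myc-labelled libraries, and Pfkl 122 and 123 against 116 and 126, and both overlapped between the groups. Slc2a4 had nearly the same log2 change in both muscles, -0.43 and -0.42, and the interval of the difference ran from -0.39 to 0.35. For 6 members, Slc2a4, Eno1, Gpi1, Gyg, Ldha and Pkm, that interval lay within 1.5-fold either way (17.1%, against 20.9% of all genes tested).

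Ratios of isoforms within a library do not depend on how libraries were scaled, and 8 pairs were compared in soleus by an exact two-sided permutation test of 3 against 4 libraries, which cannot go below p = 0.0571. The log2 ratio of the widespread mutase Pgam1 to the muscle mutase Pgam2 was -4.99, -5.19 and -5.03 in controls and -3.92, -4.34, -4.65 and -4.69 in Myc-labelled libraries, all above the controls, a difference of 0.67 (exact permutation p = 0.0571, adjusted over 8 pairs 0.305). Per kilobase of exon, Pgam1 made up 1.39% of the pair in controls and 2.24% in Myc-labelled libraries. The ratio of Pfkl to Pfkm also differed by 0.67, from a mean of -7.09 to -6.42, with overlap at Myc-labelled library 3 (exact permutation p = 0.114), and per kilobase Pfkl was 0.588% and 0.950% of the pair. That of Slc2a1 to Slc2a4 differed by 0.41 (exact permutation p = 0.114), with 1 control inside the range of the Myc-labelled libraries, and by 0.22 without control 2. In quadriceps, where no test was made, the same ratio was -6.42 and -6.12 in controls and -6.06 and -5.46 in Myc-labelled libraries. These did not overlap, but the gap was small beside the spread, and the other pairs overlapped there. Of all single genes tested in quadriceps, 35.2% were without overlap in either direction. The other 5 soleus pairs overlapped and differed by -0.19 for Hk1 to Hk2, 0.24 for Pfkp to Pfkm, 0.08 for Eno1 to Eno3, -0.17 for Ldhb to Ldha and -0.13 for Pygb to Pygm. As each library was left out, the difference ran from -0.34 to -0.07 for Hk1 to Hk2, from 0.06 to 0.38 for Pfkp to Pfkm and from -0.31 to -0.0045 for Ldhb to Ldha, and it changed sign for Eno1 to Eno3 and Pygb to Pygm. That of Pgam1 to Pgam2 stayed at 0.51 to 0.77 and that of Pfkl to Pfkm at 0.53 to 0.83. No pair passed after adjustment over the 8.

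**Figure D4:**
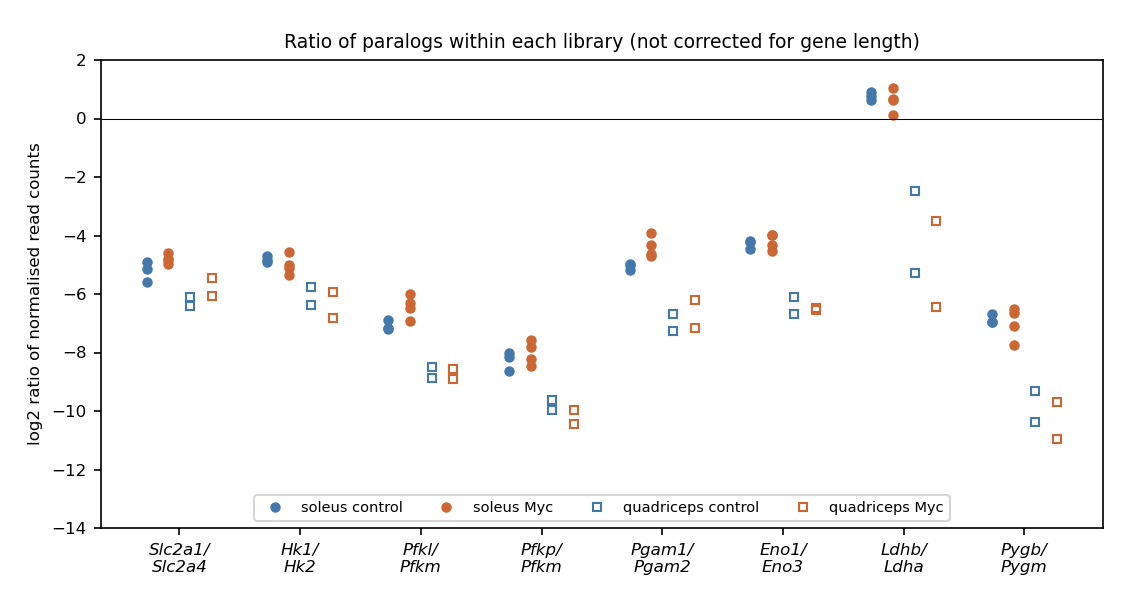
Log2 ratio of normalised read counts of 8 pairs of related genes in every library, soleus as filled circles and quadriceps as open squares, not corrected for gene length. In soleus the Myc-labelled values of Pgam1 over Pgam2 lie above all 3 controls, and the other 7 pairs overlap. Ldhb exceeds Ldha in every soleus library and lies below it in every quadriceps library.

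Per kilobase of exon, Aldoa was the highest member in both muscles, at 37041 ± 2094 normalised read counts per kilobase in soleus controls (SD, n = 3) and 121603 ± 17911 in quadriceps controls (SD, n = 2). In soleus Ldhb came next at 15690.4 ± 2080.2, then Pgam2 at 13362 ± 271, Eno3 at 12981 ± 1014 and Pygm at 12113 ± 397. The mean of Eno3 was within its SD of both Pgam2 and Pygm, whereas Ldhb was above Pgam2 by more than either SD. In quadriceps Eno3 (48019 ± 9473), Pygm (38746 ± 7876) and Pgam2 (31769.5 ± 3055) followed Aldoa. There Eno3 was within its SD of Pygm and Pygm within its SD of Pgam2, and Aldoa stood above Eno3 by more than either SD. The carrier Slc2a4 was in rank 14 of 35 in both. The lowest members were the non-muscle forms, with Pfkp, Pgm2, Pfkl and Hk1 in the last 4 ranks in soleus and Pfkp, Pgm2, Hk1 and Pygb in quadriceps. By the mean share per kilobase within the pair, a scale-free measure, Ldhb was 71.3% of the lactate dehydrogenase pair in soleus controls and 12.2% in quadriceps controls. The quadriceps controls were far apart, with log2 ratios of Ldhb to Ldha of -5.27 and -2.47, against 0.77, 0.64 and 0.92 in soleus controls.

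Other genes of glucose metabolism, from lists of 8 groups, were read from the same soleus fit, in which 9.29% of all genes passed. Among 9 other glycolysis genes 1 rose, the ADP-dependent glucokinase Adpgk, from 148, 202 and 212 normalised read counts in controls to 318, 284, 296 and 367 (log2 change 0.76 ± 0.17, adjusted p = 0.0092). It did not pass without control 1 (adjusted p = 0.056) or without Myc-labelled libraries 3 and 4 together (0.092). The log2 change was -0.37 for Bpgm, which makes 2,3-bisphosphoglycerate (adjusted p = 0.071), and 0.31 for the fructose bisphosphatase Tigar (adjusted p = 0.084). Among 19 other glycogen genes 1 rose and 1 fell. Nhlrc1, the ubiquitin ligase malin that acts with laforin on glycogen, rose from 113, 125 and 123 to 236, 264, 277 and 243, a log2 change of 1.07 ± 0.17 (adjusted p = 0.00058), and passed under every alternative run. In quadriceps its log2 change was 0.54 (adjusted p = 0.72). Pgm5, a phosphoglucomutase relative found at cell junctions, fell by 0.41 on the log2 scale (adjusted p = 0.049), a call that 11 alternatives lost. Ppp1r3e, a glycogen-targeting subunit of protein phosphatase 1, was a low gene with a log2 change of 1.32 in soleus (adjusted p = 0.062) and 1.16 in quadriceps (adjusted p = 0.72).

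Among 22 genes of insulin signalling and carrier traffic 1 rose and 1 fell in soleus. Akt1, a kinase downstream of the insulin receptor, rose from 1585, 1649 and 1654 to 1932, 2130.4, 2473 and 2370.2, a log2 change of 0.44 ± 0.10 (adjusted p = 0.0099). Its call was lost without Myc-labelled libraries 3 and 4 together (adjusted p = 0.12). Tbc1d1, a Rab regulator that holds Slc2a4 vesicles back, fell from 338, 759.5 and 393 to 202, 242, 284 and 198, a log2 change of -1.02 ± 0.25 (adjusted p = 0.029). Control 2 was far above the other controls, and without it the log2 change was -0.67 (adjusted p = 0.061). The call was lost in 7 alternatives in all, also without Myc-labelled library 1 (adjusted p = 0.084), 2 (0.058) or 4 (0.098) and without libraries 3 and 4 together (0.14), in 1 fit over all 11 libraries (0.070) and with limma-voom (0.064). Lnpep, an aminopeptidase that travels with Slc2a4, had log2 changes of -0.65 in soleus (adjusted p = 0.18) and -0.54 in quadriceps (adjusted p = 0.59). Tbc1d4 had a log2 change of 0.45 in quadriceps (adjusted p = 0.67).

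Of the 9 NADH shuttle genes in soleus 1 fell, Gpd2, the mitochondrial glycerol phosphate dehydrogenase, from 346, 393 and 438 to 211, 309, 309.7 and 234, a log2 change of -0.57 ± 0.17 (adjusted p = 0.042). Each library left out in turn took its adjusted p to 0.053 or more, except Myc-labelled libraries 2 and 3. The call was also lost with scaling by library totals (limma, adjusted p = 0.062) and without robust moderation (0.055). It was lost as well in 1 fit over all 11 libraries (0.18) and without Myc-labelled libraries 3 and 4 together (0.11). None of the 18 genes of pyruvate entry and monocarboxylate carriage passed, with Emb, a low gene and partner of the lactate carriers, at -2.38 (adjusted p = 0.053) and Pdk1, a brake on pyruvate dehydrogenase, at 0.23 (adjusted p = 0.13). None of the 8 pentose phosphate genes passed. Of its oxidative enzymes, Pgls and Pgd had log2 changes of 0.38 (adjusted p = 0.075) and 0.44 (adjusted p = 0.089), and G6pdx and H6pd had changes of -0.54 (adjusted p = 0.54) and -0.40 (adjusted p = 0.27). None of the 9 hexosamine and polyol genes or the 23 regulators passed. Of these, Gfpt1, the entry enzyme of the hexosamine pathway, was at 0.29 (adjusted p = 0.18), and the transcription factors Mef2a and Mlxipl were at -0.33 and -0.26 (adjusted p = 0.061 and 0.18). No gene of the 8 lists passed in quadriceps or in the test of the difference between muscles.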

How the data were processed

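RNA was sequenced in 11 bulk libraries of mouse soleus and quadriceps. The deposited unit is a normalised signal per gene: read counts that the authors divided by 1 size factor per library. That was read from the values, because 90.9% to 93.5% of those below 300 reads were within 0.02 of a whole multiple of a step worth 1 read. Per the submitters' processing notes, the tools were STAR 2.7.8a, Partek and DESeq2 and the builds mm10 and mm39, with no role or order given.

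Because the values are not raw counts, limma 3.58.1 in R 4.3.3 (statmod 1.5.0) was run on log2(value + 1), trended and robust. Genes had to reach 10 in at least 3 libraries of soleus or 2 of quadriceps, and all 35 members with a row did so in both muscles. Fold changes are on that scale, which understates the change of low genes. Separate fits were made for each muscle, and 1 fit over 11 libraries gave the difference. P-values were adjusted by Benjamini-Hochberg over all genes tested, with a threshold of 0.05. Paralog ratios were compared by exact permutation (scipy 1.17.1). Lengths are of GENCODE exons, and promoters are from RefSeq. Replicates differed beyond sampling noise.

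Alternatives were other scalings (library totals, TMM), limma-voom on estimated reads, no filter, a pseudocount of 5, no robust moderation, a replicate block, 1 fit over all libraries, and leaving out libraries. The members, gene lists and tests were chosen with earlier results of these data known. For Myc, the range of each group in soleus and the log2 change in each muscle are given. Values by library are given for members that passed, and for the 10 members with the smallest p in soleus, the 8 in quadriceps and the 4 for the difference. From other lists, genes that passed are named, with up to 3 in soleus and 2 in quadriceps by p. Ldha, Gpd1, Pfkfb3 and Ldhb were added after their values were seen.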

Additional observations from a re-analysis of the deposited data

Results flagged for a closer look

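In soleus, Phka1, the alpha subunit of muscle phosphorylase kinase, had 1 Myc-labelled library far from the others. Replicate 3 held 2699 normalised read counts, and the others held 1989.7 to 2062. The gap was 0.883 of the group's whole range, above the 95% critical value of Dixon's test for 4 libraries. It was the only one of the 35 members with such a library, and chance flags about 1 in 20 groups.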

How the results depend on the processing

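The count of members that passed in soleus was 2, both lower. With the number in the title as a replicate block it was 4 (3 lower and 1 higher, Pgam1 and Slc16a3 being added). It was 1 in 1 fit over all 11 libraries, and 1 to 3 when each library was left out in turn. It stayed at 2 or 3 under the other alternatives. Whether the numbers pair the soleus libraries cannot be settled from so few libraries. Deviations of same-numbered libraries correlated at 0.0010, 0.076 and 0.14 across genes. Controls 1 and 2 each correlated best with another number, and control 3 with its own. Control 2 correlated at 0.21, 0.076, -0.14 and -0.13 with Myc-labelled libraries 1 to 4, and control 3 at -0.20, -0.095, 0.14 and 0.13. In quadriceps same-numbered libraries correlated at 0.14 and differently numbered ones at -0.14. With 2 libraries a group the deviations mirror each other, so these are 1 value by construction and cannot settle the pairing. The block gave 0 members in quadriceps, as did every other alternative there and for the difference between muscles. The log2 change of Hk1 in quadriceps ran from -1.04 to 0.079 as each library was left out, changing sign without Myc-labelled replicate 1. Among the ratios of paralogs, leaving out each library in turn gave -0.0017 to 0.20 for Eno1 to Eno3 and -0.29 to 0.11 for Pygb to Pygm, with sign changes without control 3 and without Myc-labelled replicate 3. Over all genes the soleus count of calls ran from 624 (without Myc-labelled replicates 3 and 4) to 1260, around 1184, and the quadriceps count from 0 to 106, around 1. The test of edgeR on whole reads was not run, because whole reads could not be recovered for enough values. With 2 libraries a group, the quadriceps intervals were wide, with a median width of 1.29 on the log2 scale against 0.55 in soleus.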

Other observations

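Liver forms of these enzymes were seen in 1 soleus control. Pklr, the liver pyruvate kinase, held 289 normalised read counts in control 2 and at most 5.84 in any other soleus library. Pygl, the liver phosphorylase, held 216 there and 11.5 to 45.8 elsewhere, and Gys2, the liver glycogen synthase, held 66.0 there and at most 2.92 elsewhere. These 3 genes were picked after their values were seen. Without control 2 the log2 change of Slc2a4 in soleus was -0.45, against -0.43 with it, and that of Phkg1 was -0.66, against -0.76.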
